A study of Homo sapiens with 12 samples.

Results

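AP-1 is a transcription factor assembled from pairs of basic leucine zipper proteins, and its genes were followed here in 2 ovarian cancer cell lines treated with THZ1. The 9 genes described are JUN, JUNB, JUND, FOS, FOSB, FOSL1, FOSL2, ATF3 and BATF3, taken by their exact names from the 23621 gene rows of each expression table. All 9 were active, meaning an FPKM (a read count corrected for transcript length and library) above 1 in at least 1 of 12 libraries, as were 14251 genes in all. The set was chosen because JUNB moved in opposite directions in the 2 lines at 250 nM THZ1, so the comparison of 250 nM with DMSO is a description for these genes and carries no test.

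JUN proteins can pair with each other or with FOS proteins, whereas FOS proteins need a JUN partner to bind DNA. The pairs bind the TPA response element, and their subunits differ in how strongly they activate transcription, JUNB and JUND being the weaker activators in many settings. JUN, JUNB, FOS, FOSB and ATF3 are textbook immediate early genes, which are transcribed within minutes of a growth factor or stress signal and whose mRNAs are short-lived. FOSL1 (FRA-1) and FOSL2 (FRA-2) are later members of the family, and FOSL1 is known for high levels in invasive carcinoma cells.

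KURAMOCHI (Ku) and COV362 (Cov), 2 established human ovarian cancer lines labelled as untransduced controls, were treated for 6 hr with DMSO vehicle, THZ1 at 50 nM or THZ1 at 250 nM, with 2 biological replicates in each of the 6 groups. THZ1 is a covalent inhibitor of CDK7, CDK12 and CDK13, kinases of the transcription machinery. Ku was grown in RPMI and Cov in DMEM, both with fetal bovine serum, so line and medium cannot be told apart. ERCC spike-in RNAs had been mixed into RNA normalized by cell count, and the FPKM are relative to these spike-ins, in a table for each line that was normalized separately. Levels in Ku and Cov are therefore given side by side, and no difference between the lines was tested.

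The summed FPKM of a library lay between 1227780 and 1234310 in Ku DMSO, 976344 and 1023190 at 50 nM and 607016 and 662890 at 250 nM. In Cov it lay between 1472390 and 1686570, 1052200 and 1195880, and 758681 and 764273. The median log2 fold change of FPKM + 1 over the active genes was -0.40 in Ku and -0.85 in Cov at 50 nM, and -1.11 and -1.31 at 250 nM. Rescaling each library to the same median FPKM moved these medians to 0.10, 0.12, 0.29 and 0.31, so that a value turned to just above 0 at 250 nM still lay below the median gene, and median-of-ratios scaling placed all 4 medians between -0.00088 and 0.025. Both rescalings take the typical gene as unchanged, so they remove a shift shared by most genes, which the spike-ins keep. A value turned by rescaling is therefore a level relative to that typical gene. Directions below are on the spike-in scale. Both rescaled values (equal-median first) are given where the direction of an AP-1 gene or a named list gene turns. In bulk libraries, fewer cells carrying an RNA and less of it per cell cannot be told apart. Of 7 epithelial and ovarian carcinoma markers, KRT8, KRT18 and PAX8 had DMSO means of 2432, 2135 and 136 FPKM in Ku and 1133, 792 and 124 in Cov. KRT7 and EPCAM were at 4.61 and 4.13 FPKM in Ku against 1355 and 162 in Cov, WT1 at 56.8 against 0.65 and MUC16 at 0.17 against 5.71. Of 11 markers of other cell types, PTPRC, CD3E, PECAM1, DCN and LUM lay below 1 FPKM in both lines in DMSO. The others were low but not all absent, with CDH5 at 8.23 FPKM in Ku and 7.75 in Cov, COL3A1 at 8.58 and 0.66, COL1A1 at 2.53 and 3.17, VWF at 2.66 and 0.60, CD68 at 2.31 and 4.12 and CD14 at 1.31 and 0.63. The part of such cells in the results was not tested.

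In DMSO the lines differed in which AP-1 gene led. In Cov, FOSL1 was highest at a mean of 329 ± 12.7 FPKM (SD, n = 2), followed by JUND at 167 ± 6.51, JUNB at 79.1 ± 4.18, JUN at 69.5, FOSL2 at 41.4, ATF3 at 16.3, BATF3 at 6.36, FOS at 3.80 and FOSB at 1.02. No neighbours in this order overlapped between their replicates. In Ku the order was JUND at 43.2, JUN at 37.5, JUNB at 19.6, FOSL2 at 11.5, FOSL1 at 10.4, ATF3 at 7.19, FOS at 4.18, FOSB at 1.57 and BATF3 at 1.04. Among these neighbours FOSL2 and FOSL1 overlapped. FPKM is corrected for transcript length, which allows levels of different genes to be ordered within a line.

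**Figure D1:**
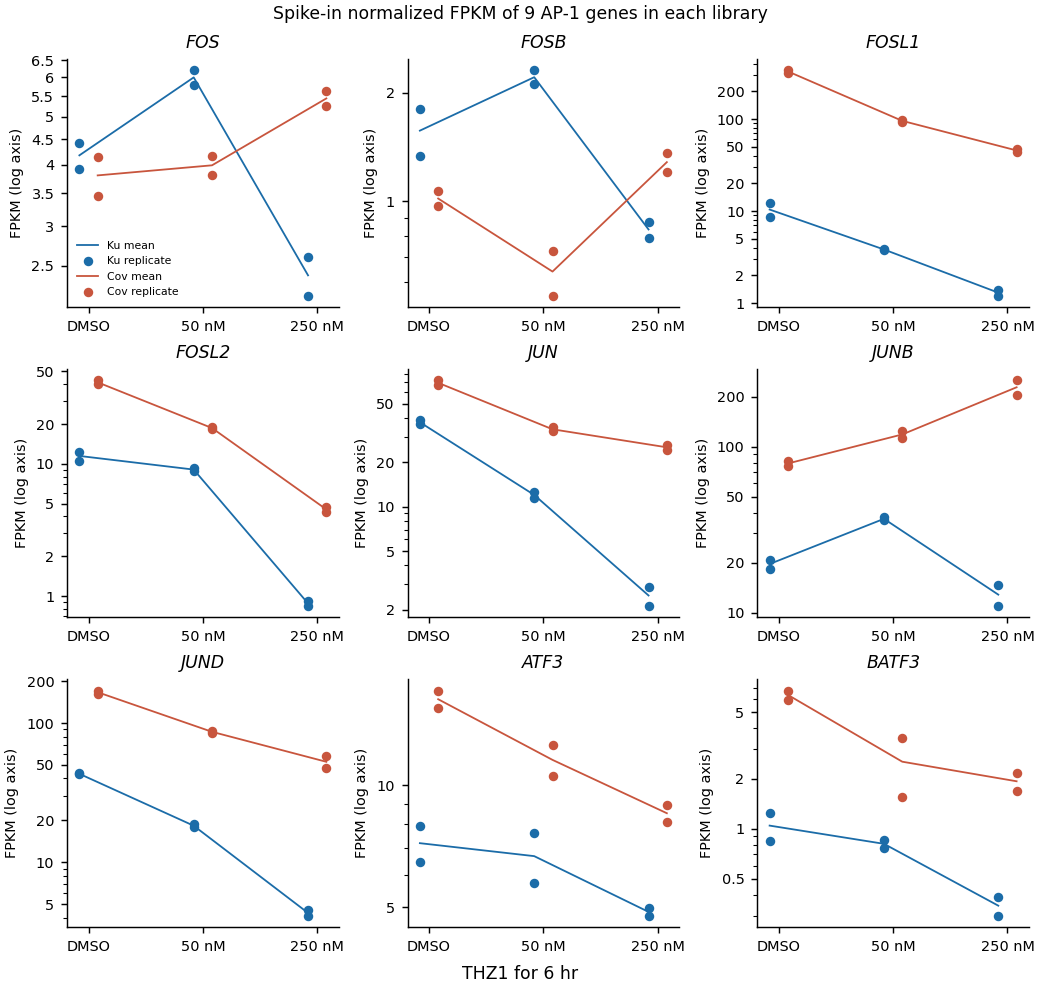
FPKM on a log axis of the 9 AP-1 genes in Ku (blue) and Cov (red) cells treated for 6 hr with DMSO or THZ1 at 50 nM or 250 nM; points are replicates and lines join the means of 2. The JUNB panel steps upward with each dose in Cov, to 205 and 250.02 FPKM, and peaks at 50 nM in Ku, at 36.0 and 37.5 FPKM.

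JUNB, the JUN paralog that often opposes JUN, went from 20.9 and 18.4 FPKM in Ku DMSO to 36.0 and 37.5 at 50 nM and to 11.0 and 14.7 at 250 nM. In Cov it went from 76.2 and 82.1 FPKM to 124 and 112 at 50 nM and to 205 and 250.02 at 250 nM. Groups of JUNB did not overlap at any dose in either line, so that the low dose lay above DMSO in both lines and the high dose lay below DMSO in Ku and above it in Cov. At 250 nM the log2 fold change was -0.59 in Ku and 1.51 in Cov on the spike-in scale, but in Ku it was 1.28 after equal-median scaling and 0.79 after median-of-ratios scaling, against 3.56 and 3.10 in Cov. The opposite directions on which the genes were chosen thus belong to the spike-in scale, and under both rescalings JUNB lay above DMSO in both lines.

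The 50 nM libraries were not used in the choice, although they are compared with the same DMSO libraries. There the log2 fold change of JUNB was 0.87 (SE 0.142, limma adjusted p = 0.00369) in Ku and 0.57 (SE 0.116, limma adjusted p = 0.00227) in Cov. Neither passed the threshold used for calls, an adjusted p under 0.001 with a log2 fold change beyond 0.5, and both would be called at an adjusted p under 0.05. JUNB ranked 78th from the top of 14251 active genes by log2 fold change in Ku and 66th in Cov. At 250 nM its rank was 3083 in Ku and 42 in Cov.

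JUN, the founding member, lay below DMSO at both doses in both lines. Its level was 38.6 and 36.4 FPKM in Ku DMSO, 11.5 and 12.6 at 50 nM and 2.13 and 2.87 at 250 nM. In Cov it was 66.9 and 72.1, then 34.7 and 32.5, then 24.3 and 26.3. JUN fell at 50 nM, its log2 fold change being -1.56 in Ku (SE 0.133, limma adjusted p = 0.000496) and -1.03 in Cov (SE 0.0885, limma adjusted p = 4.78e-05), and the Cov value turned to 0.17 under equal-median scaling and to -0.02 under median-of-ratios scaling. Without any 1 Ku library the Ku value stayed between -1.62 and -1.50 but its limma adjusted p lay between 0.00144 and 0.00414, which does not pass. At 250 nM the log2 fold change was -3.47 in Ku and -1.42 in Cov, the latter becoming 0.61 and 0.16 after rescaling, while Ku remained at -1.76 and -2.22.

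JUND, the JUN paralog that is usually expressed at a steady level, had 43.4 and 43.0 FPKM in Ku DMSO, 18.7 and 17.9 at 50 nM and 4.52 and 4.12 at 250 nM. Cov cells had 162 and 171, then 87.9 and 85.3, then 47.3 and 58.1. JUND fell at 50 nM, its log2 fold change being -1.20 in Ku (SE 0.0862, limma adjusted p = 0.000358) and -0.94 in Cov (SE 0.109, limma adjusted p = 0.000153), but in Cov the value was 0.28 and 0.08 after the 2 rescalings. Without Cov DMSO replicate 2 the Cov value was -0.90 (limma adjusted p = 0.00161), which does not pass. The Ku call was lost when any 1 of the 6 Ku libraries was left out, the log2 fold change staying between -1.22 and -1.17 and the limma adjusted p lying between 0.00148 and 0.00379. At 250 nM the log2 fold change was -3.06 in Ku, which kept its sign at -1.25 and -1.74, and -1.65 in Cov, which became 0.40 and -0.05.

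The make-up of the JUN family, a measure taken within each library and not touched by scaling, differed between groups. JUNB supplied 20.3% and 18.8% of the summed JUN, JUNB and JUND FPKM in Ku DMSO, 54.4% and 55.2% at 50 nM and 62.4% and 67.8% at 250 nM. In Cov it supplied 24.9% and 25.2%, then 50.3% and 48.8%, then 74.1% and 74.8%. JUNB therefore went from a minor part of the family pool in DMSO to the major part at 250 nM in both lines, with no overlap between groups. The 250 nM shares use the JUNB values on which the genes were chosen, so they are a description. JUND went from 42.2% and 43.9% to 25.6% and 19.0% in Ku and from 53.1% and 52.6% to 17.1% and 17.4% in Cov between DMSO and 250 nM. With 2 libraries a group an exact permutation test cannot go below p = 0.333, so the shares are given as measured.

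On the spike-in scale the family sum lay below DMSO at 250 nM in Ku and overlapped DMSO in Cov. The 3 JUN genes summed to 103 and 97.8 FPKM in Ku DMSO and to 17.7 and 21.7 at 250 nM. In Cov they summed to 305 and 326 in DMSO and to 277 and 334 at 250 nM, which overlap, although the median active gene was at -1.31 there. After equal-median scaling the Cov sums went from 147 and 147 to 540 and 663, and the Ku sums from 51.0 and 56.9 to 39.3 and 43.8.

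**Figure D2:**
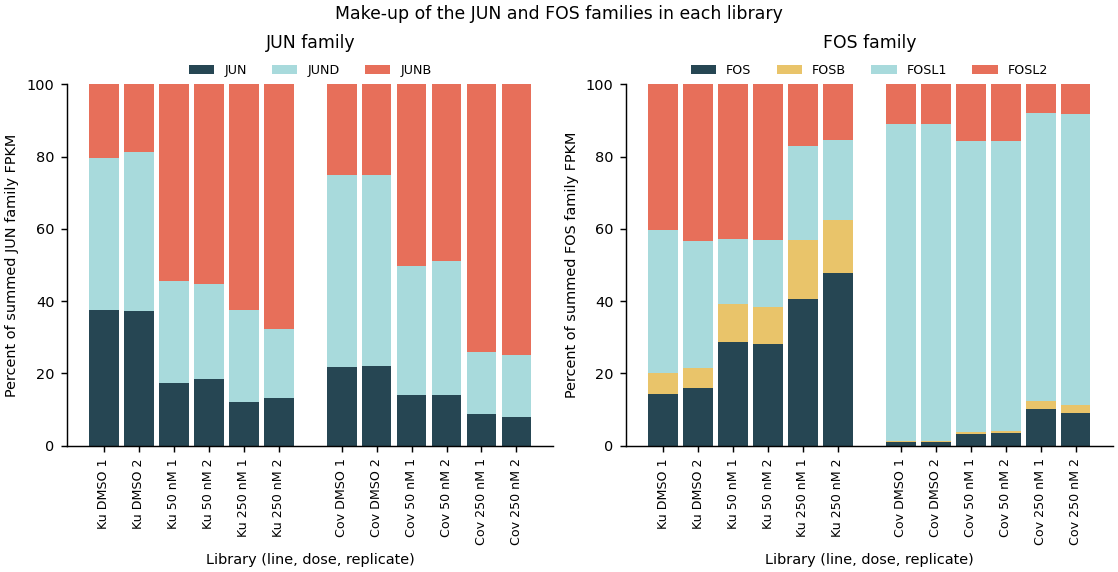
Percent of the summed FPKM of the JUN family (left) and of the FOS family (right) held by each gene in each of 12 libraries, named by line, dose and replicate. The JUNB part grows from 20.3% and 18.8% to 62.4% and 67.8% in Ku and from 24.9% and 25.2% to 74.1% and 74.8% in Cov, and FOSL1 holds at least 79.9% of the FOS family in every Cov library.

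Of the FOS family, FOSL1 had the largest level in Cov. It went from 320.1 and 338 FPKM in DMSO to 97.8 and 93.3 at 50 nM and to 44.4 and 46.8 at 250 nM. In Ku it went from 12.2 and 8.63 to 3.86 and 3.80 and to 1.39 and 1.21. FOSL1 fell at 50 nM in Cov, with a log2 fold change of -1.77 (SE 0.0797, limma adjusted p = 2.13e-05). In Ku its value was -1.22 (SE 0.178, limma adjusted p = 0.0025), which did not pass. Its log2 fold change at 250 nM was -2.29 in Ku and -2.82 in Cov and stayed below 0 under both rescalings, at -0.79 and -1.20 in Ku and at -0.77 and -1.23 in Cov.

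FOSL2 had 12.4 and 10.6 FPKM in Ku DMSO, 9.27 and 8.83 at 50 nM and 0.914 and 0.844 at 250 nM. Cov cells had 40.0 and 42.8, then 19.1 and 18.2, then 4.33 and 4.71. FOSL2 fell at 50 nM in Cov, with a log2 fold change of -1.11 (SE 0.0906, limma adjusted p = 4.04e-05), though this value became 0.07 under equal-median scaling and -0.11 under median-of-ratios scaling. The Ku value at 50 nM was -0.31 (SE 0.13, limma adjusted p = 0.0888) and turned to 0.32 and 0.19. At 250 nM it was -2.73 in Ku and -2.94 in Cov, and remained below 0 after rescaling, at -1.32 and -1.70 in Ku and at -1.04 and -1.46 in Cov.

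FOS and FOSB, the immediate early members, were low in both lines. FOS had 4.43 and 3.93 FPKM in Ku DMSO, 6.20 and 5.80 at 50 nM and 2.17 and 2.60 at 250 nM. In Cov it had 3.45 and 4.15, then 3.81 and 4.16, then 5.63 and 5.25. FOS thus had the same order of groups as JUNB in Ku and lay above DMSO at 250 nM in Cov, with overlap at 50 nM there. At 50 nM the log2 fold change was 0.44 in Ku (SE 0.135, limma adjusted p = 0.0353) and 0.06 in Cov (SE 0.113, limma adjusted p = 0.646), and neither passed. At 250 nM it was -0.61 in Ku, turning to 0.90 and 0.50 after rescaling, and 0.43 in Cov, with 2.08 and 1.72 after rescaling.

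FOSB had 1.80 and 1.34 FPKM in Ku DMSO, 2.31 and 2.11 at 50 nM and 0.878 and 0.794 at 250 nM. Cov libraries had 0.968 and 1.07, then 0.730 and 0.548, then 1.21 and 1.36. The groups did not overlap at any dose, but all levels were below 3 FPKM, where the + 1 in log2(FPKM + 1) understates changes. The 50 nM values were 0.32 in Ku (SE 0.116, limma adjusted p = 0.0554) and -0.30 in Cov (SE 0.0876, limma adjusted p = 0.0127), and neither passed. The Cov value turned to 0.20 and 0.14 after rescaling. At 250 nM they were -0.48 in Ku, turning to 0.60 and 0.31, and 0.18 in Cov, with 1.26 and 1.01.

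FOS and FOSB held a larger part of the FOS family at 250 nM than in DMSO in both lines. FOS went from 14.4% and 16.03% of the family FPKM to 40.6% and 47.8% in Ku and from 0.948% and 1.08% to 10.1% and 9.04% in Cov. FOSB went from 5.86% and 5.47% to 16.4% and 14.6% in Ku and from 0.266% and 0.277% to 2.17% and 2.34% in Cov. FOSL1 held 39.6% and 35.2% of the family FPKM in Ku DMSO and 26.0% and 22.2% at 250 nM. In Cov it held 87.8% and 87.6% in DMSO and 79.9% and 80.5% at 250 nM. The FOS family sum was 365 and 386 FPKM in Cov DMSO and 55.5 and 58.1 at 250 nM, and 30.8 and 24.5 in Ku DMSO and 5.36 and 5.45 at 250 nM. At 250 nM these sums lay below DMSO under both rescalings as well.

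ATF3, a stress-induced member that can pair with JUN proteins, had 7.93 and 6.46 FPKM in Ku DMSO, 7.64 and 5.73 at 50 nM and 4.76 and 4.98 at 250 nM. In Cov the levels were 15.5 and 17.1, then 10.5 and 12.5, then 8.93 and 8.12. Its groups at 50 nM overlapped in Ku and did not overlap in Cov. The 50 nM log2 fold change was -0.10 (SE 0.171, limma adjusted p = 0.655) in Ku and -0.47 (SE 0.116, limma adjusted p = 0.00637) in Cov, and rescaling turned both, to 0.49 and 0.38 in Ku and to 0.66 and 0.48 in Cov. At 250 nM it was -0.47 in Ku and -0.86 in Cov, which became 1.23 and 0.78, and 1.05 and 0.63.

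BATF3, known for its part in dendritic cell development, had 1.24 and 0.842 FPKM in Ku DMSO, 0.859 and 0.763 at 50 nM and 0.390 and 0.299 at 250 nM. Cov libraries had 6.75 and 5.97, then 1.55 and 3.50, then 2.17 and 1.68. Its 50 nM libraries in Cov were the most unequal pair among the 9 genes in that line. The 50 nM value there was -1.12 (SE 0.252, limma adjusted p = 0.00387) and did not pass, but without 50 nM replicate 2 it was -1.53 (limma adjusted p = 2.01e-05), which passes. In Ku it was -0.17 (SE 0.107, limma adjusted p = 0.224), turning to 0.14 and 0.09 after rescaling. At 250 nM it was -0.60 in Ku and -1.33 in Cov, which became 0.16 and -0.05, and 0.26 and -0.09.

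Over the 9 genes, 2 were called lower at 50 nM in Ku (JUN and JUND), where 11.3% of active genes were, and 4 in Cov (FOSL1, FOSL2, JUN and JUND), where 70.5% were. None was called higher in either line by limma, against 0.0842% of active genes in Ku and 0.0772% in Cov, while 6 in Ku and 8 in Cov had an unadjusted p under 0.05 in either direction. Both Ku calls were lost when any 1 of the 6 Ku libraries was left out, the count then being 0, and the Cov count lay between 3 and 5. After either rescaling, 0 of the 9 were called in either line, and few active genes were: under equal-median scaling 0.737% were called lower and 0.112% higher in Ku and 0.147% and 0.0842% in Cov, and under median-of-ratios scaling 2.72% and 0.519% in Ku and 0.772% and 0.140% in Cov. The median log2 fold change of the 9 was -0.17 in Ku and -0.94 in Cov, beside -0.40 and -0.85 over all active genes.

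At 250 nM, both treated libraries lay below both DMSO libraries for all 9 genes in Ku, where 95.9% of active genes did so and 0.414% lay above. In Cov 6 lay below, against 95.6%, and 3 lay above (FOS, FOSB and JUNB), against 0.540%. Since the genes were chosen on this contrast, nothing is read from these counts. The step from 50 nM to 250 nM shares the 250 nM libraries with that choice, so nothing is read from its counts either. Against the 50 nM libraries, the 250 nM libraries lay below for all 9 in Ku (87.7% of active genes, 1.26% lying above). In Cov 5 lay below (75.6%) and 3, which were FOS, FOSB and JUNB, lay above (4.76%). That step was -1.46 for JUNB, -1.05 for FOS and -0.80 for FOSB in Ku and 0.93, 0.37 and 0.48 in Cov. After equal-median scaling the Ku steps were much smaller, at -0.25, -0.05 and -0.08, and the Cov steps were 1.78, 1.13 and 1.05. Under median-of-ratios scaling they were -0.61, -0.36 and -0.32 in Ku and 1.52, 0.89 and 0.88 in Cov. After equal-median scaling the members above DMSO at 250 nM numbered 4 in Ku and 7 in Cov, where 61.4% and 62.9% of active genes lay above.

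**Figure D3:**
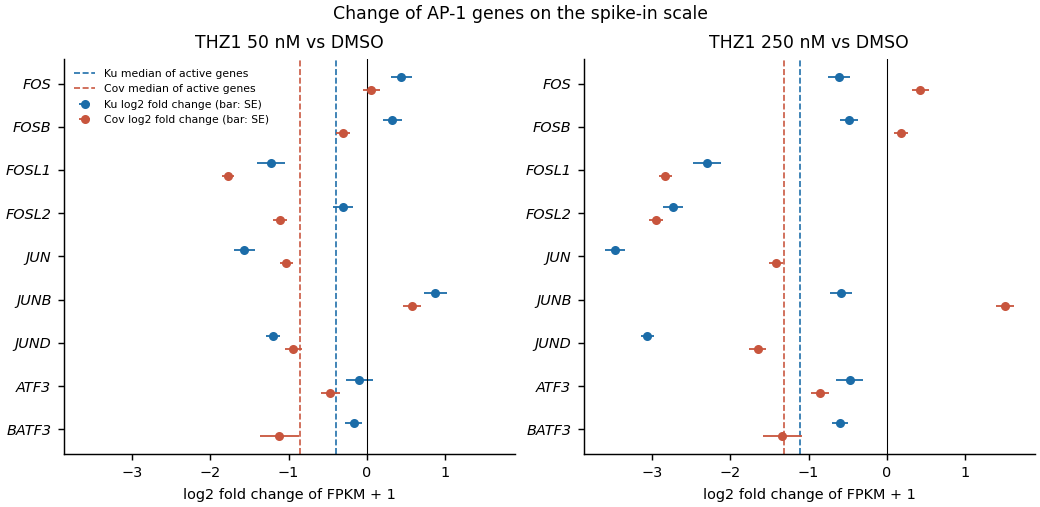
Log2 fold change of FPKM + 1 against DMSO on the spike-in scale for the 9 AP-1 genes at 50 nM (left) and 250 nM (right) in Ku (blue) and Cov (red), with bars for the SE and dashed lines for the median of all active genes. JUNB stands at 0.87 and 0.57 at 50 nM and at -0.59 and 1.51 at 250 nM, and the Ku value at 250 nM is above 0 after either rescaling.

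JUNB, FOS and FOSB also shared a feature of their promoters. Promoter sequences from RefSeq (GRCh38.p14, 250 bases before to 50 after each start) matched 7 of the 9 genes, FOSL1 and BATF3 having no entry in the table used. The letters TATAAA, the core of a TATA box, began 31 bases before the start of JUNB, 33 before that of FOS and 30 before that of FOSB, on the gene's strand. None of the other 4 matched genes had these exact letters between 40 and 20 bases before the start, and of 35116 promoters searched 809 (2.3%) did. Near matches were not searched, and JUND, which lay below DMSO at 250 nM in both lines, holds TATAAG in that window. The 150 bases before the start of these 3 genes, and of JUN for contrast, are shown 5′ to 3′ on the gene's strand, with TATAAA in capitals. They lie at chr19:12791336-12791485 (+) for JUNB, chr14:75278678-75278827 (+) for FOS, chr19:45467846-45467995 (+) for FOSB and chr1:58784048-58784197 (-) for JUN.
JUNB: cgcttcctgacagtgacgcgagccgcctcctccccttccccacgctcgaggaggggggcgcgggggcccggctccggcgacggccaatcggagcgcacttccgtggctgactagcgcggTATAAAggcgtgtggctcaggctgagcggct
FOS: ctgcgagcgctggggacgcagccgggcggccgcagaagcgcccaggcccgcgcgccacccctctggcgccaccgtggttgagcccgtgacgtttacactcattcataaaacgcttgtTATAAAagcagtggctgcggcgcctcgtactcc
FOSB: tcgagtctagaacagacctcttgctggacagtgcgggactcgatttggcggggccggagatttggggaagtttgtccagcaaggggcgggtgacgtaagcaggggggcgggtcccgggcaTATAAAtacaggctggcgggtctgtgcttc
JUN: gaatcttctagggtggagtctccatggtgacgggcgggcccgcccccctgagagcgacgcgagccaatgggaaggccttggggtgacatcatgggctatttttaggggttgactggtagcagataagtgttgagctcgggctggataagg

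The 3 genes with the letters at this place were the 3 that lay above DMSO at 250 nM in Cov, which was seen after their values were known and is given with no test. Among the 10050 active genes with a promoter in the table, 230 had TATAAA in that window. Their median log2 fold change was -0.90 against -1.16 for the others in Ku at 250 nM and -1.14 against -1.37 in Cov. In Cov, 5 of the 230 (2.17%), 3 of them JUNB, FOS and FOSB, lay above DMSO at 250 nM, against 0.295% of the others. Since these 3 were known to lie above DMSO there, nothing is read from the Cov share. In Ku 5 did (2.17%), none of them among the 9, against 0.224%. Most active genes with a TATAAA in the window were thus below DMSO.

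Further motifs were searched on both strands over the whole 300 bases. TGANTCA, the TPA response element, was found in FOSL2 and in 7.71% of all promoters, and TGACGTCA, the cAMP response element, in JUND and in 1.85%. TTCCGG, the core of ETS sites, was found in FOSB and in 17.2%, TATAAA anywhere also in the second promoter of ATF3 and in 11.5%, and the CArG box of serum response factor in none of the 7 and in 1.29%. JUN held none of these letters in its 300 bases.

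The gene models differ too. In the GENCODE annotation on GRCh37, the build of the expression tables, JUN (ENSG00000177606, chr1:59242517-59249720, -), JUNB (ENSG00000171223, chr19:12902300-12904129, +) and JUND (ENSG00000130522, chr19:18390504-18392432, -) have 1 exon, as do 5.47% of 19894 coding genes. FOS (ENSG00000170345, chr14:75745529-75748933, +), FOSB (ENSG00000125740, chr19:45971253-45978437, +), FOSL1 (ENSG00000175592, chr11:65659520-65668044, -), FOSL2 (ENSG00000075426, chr2:28615315-28640184, +) and ATF3 (ENSG00000162772, chr1:212738676-212794119, +) have 4 exons and BATF3 (ENSG00000123685, chr1:212859759-212873182, -) has 3. The 3′ UTR letters ATTTA, the core of AU-rich elements that shorten mRNA life, occur 9 times in FOSL2, 5 in FOS, 3 each in FOSB, JUN and ATF3, 2 in JUNB and once in the others, and 5 of the 9 genes hold at least 3, against 41.6% of 19400 coding genes.

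JUNB overlaps HOOK2 and FOSB overlaps ERCC1 on the opposite strand, and whether reads were assigned by strand is not given in the sources used here. HOOK2 went from 6.69 ± 0.882 FPKM (SD, n = 2) to 4.25 ± 0.210 and 3.60 ± 0.0721 in Ku and from 9.28 ± 0.565 to 3.64 ± 0.132 and 4.27 ± 0.543 in Cov. ERCC1 went from 102 ± 4.32 to 68.1 and 43.5 in Ku and from 41.2 ± 1.38 to 20.2 and 17.9 in Cov, and was far above FOSB. The share of JUNB and FOSB reads that came from these neighbours was not tested.

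The genes whose pattern over the 8 treated libraries lay nearest to JUNB, by Euclidean distance of log2 values from the DMSO mean among 8913 genes above 5 FPKM in both lines, were IER2 at 1.38, SAT1 at 2.39, IER3 at 2.59, ID2 at 2.60 and VAMP1 at 2.81. IER2, an immediate early gene, went from 17.8 and 17.0 FPKM in Ku DMSO to 22.4 and 24.6 at 50 nM and 7.85 and 10.9 at 250 nM. In Cov it went from 74.7 and 80.1 to 91.2 and 80.7 and to 129 and 145. The order of its group means was that of JUNB in both lines. Since these genes were picked for this pattern, their values are given with no test. At 250 nM the log2 fold change of IER2 was 0.81 in Cov and -0.84 in Ku, the latter turning to 1.00 and 0.51 after rescaling. That of ID2, an inhibitor of differentiation factors, was 1.31 in Ku and 0.38 in Cov at 50 nM. At 250 nM in Cov, ID2 stood at -0.24, VAMP1 at -0.35 and SAT1 at 0.16, beside 1.51 for JUNB. Rescaling turned ID2 there to 1.69 and 1.26 and VAMP1 to 1.53 and 1.12. Over all active genes, 35 lay below DMSO in Ku and above it in Cov at 250 nM, 24 the other way, 13 above in both and 13222 below in both.

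Other immediate early genes, a list of 12 of which 8 were active, are transcribed in the same rapid way as FOS and JUNB. At 50 nM 2 fell in Ku (EGR1 and DUSP1) and 4 in Cov (DUSP1, IER3, NR4A1, ZFP36L1), which is 25% and 50% of the list beside 11.3% and 70.5% of active genes. After either rescaling none was called lower at this dose in either line, and in Cov IER3 turned from -0.56 to 0.66 and 0.47, ZFP36L1 from -1.18 to 0.033 and -0.16, and NR4A1 from -0.81 to 0.10 and -0.03. Without any 1 Ku library the Ku count was 0, and without either Cov DMSO replicate the Cov count was 2. At 250 nM 6 fell in Ku, and in Cov 4 fell (DUSP1, IER5, NR4A1, ZFP36L1) and 4 rose, beside calls of 68.6% lower and 0.0491% higher among active genes in Ku and 84.0% and 0.105% in Cov. The 4 that rose in Cov were IER3, IER2, ZFP36 and EGR1, and all 4 were also called higher there under both rescalings, where 26.4% and 8.57% of active genes were. IER5 turned from -1.03 to 0.94, called higher, and 0.50 in Cov at this dose, and NR4A1 from -1.41 to 0.017 and -0.30. With the replicate number as a block, 2 of them remained called, and EGR1 (limma adjusted p = 0.00113) and ZFP36 (limma adjusted p = 0.00197) were not. The median log2 fold change at 250 nM over the 8 genes was -2.21 in Ku and -0.16 in Cov, beside -1.11 and -1.31, and after equal-median scaling -0.47 and 1.74.

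EGR1, the zinc finger factor induced by serum, had 23.2 and 20.7 FPKM in Ku DMSO, 5.69 and 5.65 at 50 nM and 2.03 and 3.02 at 250 nM. In Cov it had 7.40 and 6.96, then 4.89 and 4.32, then 12.1 and 12.6. EGR1 fell at 250 nM in Ku, with a log2 fold change of -2.71 (SE 0.166, limma adjusted p = 2.25e-05) and rose in Cov by 0.71 (SE 0.10, limma adjusted p = 0.000285). Its 50 nM value in Cov was -0.55 (limma adjusted p = 0.0014), which did not pass and turned to 0.47 and 0.32 after rescaling. IER3 had 114 and 112 FPKM in Ku DMSO and 106 and 119 at 250 nM, and 160 and 168 in Cov DMSO and 299 and 311 at 250 nM. IER3 rose there by 0.89 (SE 0.079, limma adjusted p = 2.1e-05). Its Ku value of -0.0075 (limma adjusted p = 0.925) became 1.96 and 1.44 after rescaling, called higher under both, so the difference between the lines in the calls for IER3 belongs to the spike-in scale. DUSP1, a phosphatase that switches off MAP kinases, fell at 250 nM, its log2 fold change being -3.95 in Ku (limma adjusted p = 6.52e-06) and -3.45 in Cov (limma adjusted p = 8.16e-07), the lowest values of the list in each line. ZFP36L1, an RNA-binding protein that promotes decay of AU-rich mRNAs, fell at that dose with a log2 fold change of -2.47 in Ku (limma adjusted p = 1.75e-05) and -2.17 in Cov (limma adjusted p = 9.39e-07).

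The kinases, transcription factors and ligases that act on AP-1, a list of 25 that were all active, had 2 called lower at 50 nM in Ku (CREB1 and MAPK7), 19 at 50 nM in Cov, 20 at 250 nM in Ku and 24 at 250 nM in Cov, with none higher. These are 8%, 76%, 80% and 96% of the list, beside 11.3%, 70.5%, 68.6% and 84.0% of active genes. After equal-median scaling these counts were 1, 0, 1 and 3, beside 0.737%, 0.147%, 11.6% and 11.3% of active genes, and 7 (28%) were called higher at 250 nM in each line, beside 26.9% in Ku and 26.4% in Cov. The Ku counts were 0 at 50 nM without any 1 Ku library and 13 at 250 nM without 250 nM replicate 1, and the Cov count at 50 nM was 12 and 8 without DMSO replicates 1 and 2. The list medians were -0.45, -0.96, -1.30 and -1.35, beside -0.40, -0.85, -1.11 and -1.31 over active genes. CREB1, a leucine zipper factor that drives FOS, had 9.43 and 8.21 FPKM in Ku DMSO and 1.77 and 1.46 at 50 nM, and fell there with a log2 fold change of -1.91 (SE 0.129, limma adjusted p = 0.000332), and of -1.93 in Cov (SE 0.0973, limma adjusted p = 2.13e-05). MAP2K4, which activates JUN N-terminal kinases, fell at 250 nM, its log2 fold change being -2.10 in Ku (limma adjusted p = 2.59e-05) and -2.87 in Cov (limma adjusted p = 9.96e-07). MAP2K1, which encodes MEK1, had a mean of 33.0 FPKM in Ku DMSO and 35.1 at 50 nM, and fell at 50 nM in Cov from 46.6 to 31.2 FPKM, a log2 fold change of -0.56 (SE 0.0917, limma adjusted p = 0.000751). That value turned to 0.62 and 0.44 after rescaling, and with the replicate block it no longer passed (limma adjusted p = 0.00189). MAP2K2, which encodes MEK2, fell at 250 nM, its log2 fold change being -1.37 in Ku (limma adjusted p = 1.3e-05) and -0.86 in Cov (limma adjusted p = 0.000161), which turned to 0.58 and 0.060 in Ku and to 1.18 and 0.73 in Cov after rescaling.

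Further leucine zipper partners, a list of 12 with 11 active, had 0 called lower at 50 nM in Ku by limma, with 5 at an unadjusted p under 0.05, 7 at 50 nM in Cov, 6 at 250 nM in Ku and 9 at 250 nM in Cov, with none higher. These are 0%, 63.6%, 54.5% and 81.8% of the list, beside 11.3%, 70.5%, 68.6% and 84.0% of active genes. Active was judged over both lines, so a partner near 0 FPKM in a line still counts there. At 250 nM 1 partner stood at -0.034 in Ku and -1.11 in Cov, and another at -2.06 in Ku and -0.0086 in Cov. The list medians were -0.31, -0.79, -1.31 and -1.14, beside -0.40, -0.85, -1.11 and -1.31. After equal-median scaling the counts lower were 0, 0, 1 and 0, beside 0.737%, 0.147%, 11.6% and 11.3% of active genes. The Cov count at 50 nM was 2 and 1 without DMSO replicates 1 and 2. JDP2, a repressor that pairs with JUN, fell at 250 nM, its log2 fold change being -2.16 in Ku (SE 0.148, limma adjusted p = 3.27e-05) and -1.39 in Cov (SE 0.114, limma adjusted p = 1.37e-05). ATF2, a partner of JUN, fell at that dose with a log2 fold change of -1.93 in Ku (limma adjusted p = 4.7e-05) and -1.73 in Cov (limma adjusted p = 4.9e-06), and its relative ATF7 with -1.30 (limma adjusted p = 3.36e-05) and -1.69 (limma adjusted p = 1.02e-05). MAFK, a small MAF protein, fell at 250 nM in Cov with a log2 fold change of -1.14 (limma adjusted p = 5.66e-05), and its Ku value of -1.31 did not pass (limma adjusted p = 0.00128). After rescaling, JDP2 and ATF2 stayed below 0 in Ku and stood at 0.19 and -0.16 and at 0.19 and -0.24 in Cov, ATF7 at 0.51 and 0.027 in Ku and 0.28 and -0.16 in Cov, and MAFK at 0.51 and 0.023 in Ku and 0.76 and 0.34 in Cov.

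Textbook AP-1 targets, a list of 27 with 23 active, encode proteases, matrix proteins, cytokines and growth regulators. At 50 nM 3 were called lower in Ku (CCND1, IL8 and LAMA3) and 20 in Cov, and at 250 nM 11 in Ku and 23 of 23 in Cov, with none higher. These are 13.0% and 87.0% of the list at 50 nM, beside 11.3% and 70.5% of active genes, and 47.8% and 100% at 250 nM, beside 68.6% and 84.0%. The medians were -0.29 and -1.03 at 50 nM and -0.77 and -1.60 at 250 nM. The list thus stood above the median active gene in Ku and below it in Cov at both doses, as it did after either rescaling. Active was judged over both lines, so a target expressed mainly in Cov still counts in Ku, where the + 1 holds its value near 0. At 250 nM some targets had Ku values of -0.0016, -0.069, -0.19 and -0.23, beside -1.51, -2.43, -1.59 and -2.32 in Cov. Their part in the Ku counts and medians was not tested, so no difference between the lines is read from these. After equal-median scaling the counts lower at 250 nM were 0 in Ku and 3 in Cov, beside 11.6% and 11.3% of active genes, and 10 (43.5%) and 5 (21.7%) were called higher, beside 26.9% and 26.4%. The Ku count at 50 nM was 0 without any 1 Ku library and that at 250 nM was 7 without either 250 nM replicate, and the Cov count at 50 nM was 12 without DMSO replicate 2. CCND1, which encodes cyclin D1, fell at 50 nM, its log2 fold change being -1.17 in Ku (SE 0.0656, limma adjusted p = 0.000232) and -1.67 in Cov (SE 0.0927, limma adjusted p = 2.16e-05). VIM, which encodes vimentin, fell at 250 nM, its log2 fold change being -0.78 in Ku (limma adjusted p = 6.45e-05) and -1.10 in Cov (limma adjusted p = 2.41e-05), and the secreted phosphoprotein SPP1 fell with a log2 fold change of -0.82 in Cov (limma adjusted p = 3.76e-05) and stood at -0.37 in Ku (limma adjusted p = 0.0106). Both genes were instead called higher at 250 nM in both lines after rescaling, VIM at 1.20 and 0.68 in Ku and 0.97 and 0.51 in Cov, and SPP1 at 1.61 and 1.09 in Ku and 1.23 and 0.77 in Cov.

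**Figure D4:**
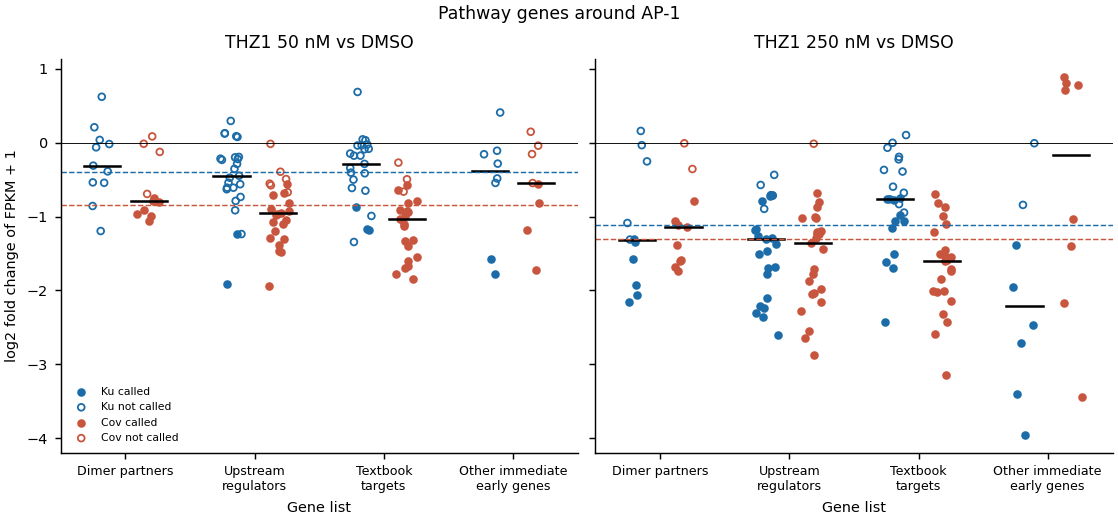
Log2 fold change of FPKM + 1 against DMSO on the spike-in scale for the active genes of 4 lists around AP-1 at 50 nM (left) and 250 nM (right) in Ku (blue) and Cov (red); filled points passed the test, black bars are list medians and dashed lines the medians of all active genes. At 250 nM 4 of the 8 other immediate early genes lie above 0 as called genes in Cov and none does in Ku, where IER3 is called higher after either rescaling.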

How the data were processed

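The authors sequenced polyadenylated RNA of 12 libraries (TruSeq Stranded mRNA, NextSeq 500, single-end reads) with ERCC spike-ins added according to cell number. They mapped reads to hg19 with HiSat, quantified them with cuffquant and cuffnorm, and deposited the resulting spike-in normalized FPKM, with a table for each line. Versions, annotation and counting strand are not given in the sources used here. Depth is unknown, no interval based on counts is given, and edgeR, which the study names, needs counts and was not used.

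Groups came from the labels. Genes with FPKM above 1 in at least 1 library of either line were kept, so a kept gene can lie near 0 FPKM in the other line. The 92 ERCC rows were left out. For each line, limma 3.58.1 (R 4.3.3) was run on log2(FPKM + 1), with lmFit and eBayes with trend, 6 libraries in 3 groups, two-sided, adjusted by Benjamini-Hochberg over 14251 active genes; the call thresholds (0.001 and 0.5) follow the study. The text says fell or rose of genes past both. Replicates correlated at r = 0.968 to 0.983 across genes.

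The members and lists were chosen with earlier results of these data known. Genes named from each list were the 3 highest in DMSO and the 2 with the largest change at 250 nM, and genes of any call count of 5 or fewer; the 5 nearest patterns to JUNB were also named. Values of 3 genes under this rule are not reported here. Promoters of chromosome 8 were left out. Alternatives were another pseudocount (0.1), other minimum FPKM (10 or none), 2 rescalings, a replicate block, no trend, an adjusted p of 0.05, and each library left out.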

Additional observations from a re-analysis of the deposited data

Results flagged for a closer look

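The following genes, of the AP-1 genes, the 4 lists and the neighbours of JUNB, had both treated libraries on one side of both reference libraries in Ku and on the other side in Cov. The differences between the lines were not tested, since the tables were normalized separately, and values are log2 fold changes on the spike-in scale, Ku first, unless another scale is named.

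At 50 nM against DMSO, FOSB was 0.32 and -0.30, MAP2K1 0.087 and -0.56, FBXW7 0.29 and -0.55, and HBEGF 0.69 and -0.50. After equal-median and median-of-ratios scaling all 4 were above 0 in both lines, FOSB at 0.68 and 0.62 in Ku and 0.20 and 0.14 in Cov, MAP2K1 at 0.76 and 0.62 and at 0.62 and 0.44, FBXW7 at 0.89 and 0.77 and at 0.54 and 0.38, and HBEGF at 1.36 and 1.22 and at 0.64 and 0.46.

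At 250 nM against DMSO, FOS was -0.61 and 0.43, FOSB -0.48 and 0.18, JUNB -0.59 and 1.51, and IER2 -0.84 and 0.81, and these 4 were above 0 in both lines after either rescaling. EGR1 was -2.71 and 0.71 and ZFP36 -1.95 and 0.78, and both kept opposite signs after rescaling, EGR1 at -1.03 and -1.48 in Ku and 2.54 and 2.14 in Cov, and ZFP36 at -0.20 and -0.67 and at 2.69 and 2.27.

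At 250 nM against 50 nM, FOS was -1.05 and 0.37, FOSB -0.80 and 0.48, JUNB -1.46 and 0.93, IER2 -1.25 and 0.67, EGR1 -0.93 and 1.25, and ZFP36 -1.46 and 0.82. These signs held after either rescaling, except that EGR1 in Ku was 0.071 under equal-median scaling. This step shares the 250 nM libraries with the choice of the AP-1 genes.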

How the results depend on the processing

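Rescaling, which takes the typical gene as unchanged, moved most results. At 50 nM, equal-median and then median-of-ratios scaling turned ATF3 to 0.66 and 0.48 in Cov and 0.49 and 0.38 in Ku, BATF3 to 0.14 and 0.087 in Ku, FOSB to 0.20 and 0.14 in Cov, FOSL2 to 0.32 and 0.19 in Ku and JUND to 0.28 and 0.084 in Cov, and equal-median scaling alone turned FOSL2 to 0.072 and JUN to 0.17 in Cov. Leaving out a library turned ATF3 in Ku to 0.032 (without DMSO replicate 1) and 0.083 (without 50 nM replicate 2), in a range of -0.28 to 0.083, and FOS in Cov to -0.048 (without DMSO replicate 1), in a range of -0.048 to 0.16. The cause was not tested.

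Members called lower at 50 nM were 0 under either rescaling in both lines and 0 in Ku with no minimum FPKM, and 1 was called higher in each line at an adjusted p under 0.05. Members above DMSO at 250 nM became 7 and 5 in Cov and 4 and 4 in Ku, and members below 2 and 2 in Cov and 4 and 4 in Ku, while of active genes 62.9% and 43.6% lay above in Cov and 61.4% and 42% in Ku, and 27.7% and 43.5% below in Cov and 27.4% and 43% in Ku. For the lists the counts lower under the 2 rescalings were, for dimer partners, 0 and 0 in Cov at either dose and 1 and 2 in Ku at 250 nM; for other immediate early genes, 1 and 2 in Cov and 3 in Ku under equal-median scaling at 250 nM, and 0 and 0 in each line at 50 nM; for targets, 3 and 4 in Cov and 0 and 1 in Ku at 250 nM, and 0 and 1 in Cov and 0 and 0 in Ku at 50 nM; and for upstream regulators, 3 and 5 in Cov and 1 and 5 in Ku at 250 nM, and 0 and 1 in Cov and 1 and 1 in Ku at 50 nM. With a minimum FPKM of 10, which drops FOS, FOSB and BATF3, dimer partners called lower in Cov were 5 at 250 nM and 4 at 50 nM. In Ku at 50 nM, no minimum gave 0 immediate early genes, 0 targets and 0 regulators, no trend gave 1 target and 1 regulator, and an adjusted p under 0.05 gave 4 partners, 8 targets and 11 regulators.

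With the replicate block, Ku at 50 nM had 1 immediate early gene, 1 regulator and 2 targets called lower and 1 target (HBEGF) higher, and JUN and JUND in Ku and FOSL1, FOSL2, JUN and JUND in Cov remained called. In Cov the block left 2 of the 4 immediate early genes called higher at 250 nM, and 5 of 7 partners, 3 of 4 immediate early genes, 16 of 20 targets and 13 of 19 regulators called lower at 50 nM. Deviations of same-numbered libraries correlated at -0.0703 to 0.0282, so the numbers name samples and do not pair them.

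Leaving out each library gave 0 to 0 members called lower at 50 nM in Ku and 3 to 5 in Cov. At 50 nM in Ku it gave 0 to 0 for each of the 4 lists, and in Cov 1 to 8 partners, 2 to 4 immediate early genes, 12 to 20 targets and 8 to 19 regulators. At 250 nM it gave 4 to 7, 5 to 6, 7 to 11 and 13 to 21 in Ku and 8 to 9, 4 to 4, 22 to 23 and 21 to 24 in Cov.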
